A study of Mus musculus with 2 samples.

Results

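Deep-layer projection neuron genes were followed in the cerebral cortex of newborn mice labelled as lacking MRTF-A and in which Mrtfb was also targeted. The 10 genes are Bcl11b, Fezf2, Tbr1, Sox5, Foxp2, Tle4, Crym, Syt6, Nr4a2 and Zfpm2, and all 35 probe sets that the array's annotation gives to exactly 1 of them were taken, out of 34945 probe sets naming 1 gene. The study hybridised 2 Affymetrix arrays, 1 per group, each with cortical RNA pooled from 3 animals. The double knockout pool is labelled MRTF-A-/-;MRTF-BF/F;GFAP-Cre and the control pool MRTFA-/-;MRTF-BFlox/Flox. By these labels both groups lack MRTF-A, and only the double knockout carries the Cre recombinase transgene that removes the floxed Mrtfb segment. The Mrtfa signal nevertheless differed between the pools, as given below. Both pools are labelled postnatal day 0, but the description of the double knockout sample gives day 1. No source used here states in which cells the GFAP promoter drove Cre, or what share of them lost Mrtfb.

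Projection neurons of the cortex are made in order, those of the deep layers before those of the upper layers. Layer 5 holds neurons that send axons to the brainstem and spinal cord, layer 6 holds neurons that send axons to the thalamus, and the subplate lies beneath them. Fezf2 and Bcl11b drive the layer 5 output fate, Tbr1 drives the layer 6 fate and restrains Fezf2 and Bcl11b, and Sox5 controls the timing with which these deep-layer fates appear. The targeted proteins, MRTF-A and MRTF-B, work with the DNA-binding factor SRF and respond to actin.

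The deep-layer genes showed small differences in both directions. Of the 35 probe sets 24 were measured, which means that their signal reached a floor of 178.6, the median of all non-control signals, on at least 1 array. All 24 reached it on both arrays (called bright below), and the other 11 lay under it on both. Each of the 10 genes kept at least 1 measured probe set. On the log2 scale, double knockout minus control, 11 of the 24 lay above 0 and 13 below it. Their median was -0.018, their lowest value -0.62 and their highest 0.25. Over all 20244 measured probe sets naming 1 gene, 49.4% were above 0 and 50.6% below 0. A difference was called past 25% where the higher signal exceeded the lower by more than that. No deep-layer probe set was past 25% on the higher side, where 3.48% of all measured probe sets were, and 2 were past 25% on the lower side, where 6.59% of all measured probe sets were. One of these, of Foxp2, was also lower by more than 1.5-fold, against a share of 0.968% of all measured probe sets. With 1 array per group no test was possible, and every value below describes 2 RNA pools. In bulk tissue, fewer cells of a type and less RNA per cell cannot be told apart.

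**Figure D1:**
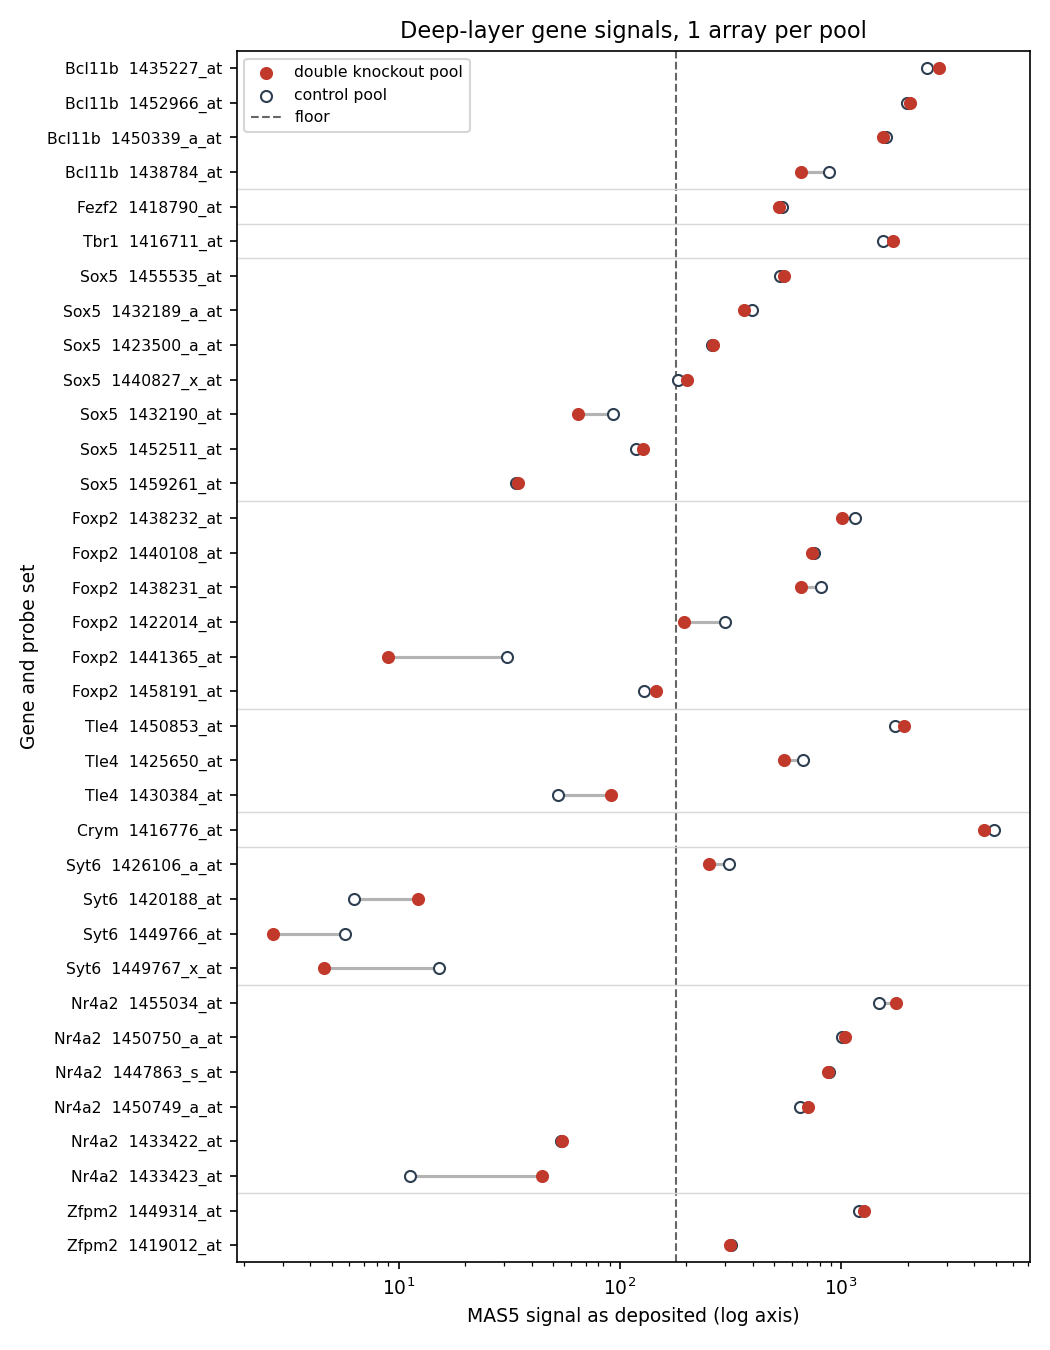
Deposited MAS5 signal on a log axis for the 35 probe sets of the 10 deep-layer genes, ordered by gene, with filled points for the double knockout pool, open points for the control pool and a dashed line at the floor of 178.6. The 24 measured probe sets lie to the right of the line with their points close together, and the wider gaps are among the 11 probe sets under the floor.

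Taking the brightest probe set of each gene, 6 genes were higher and 4 lower in the double knockout pool. Their median was 0.063, against 0.011 over all 11636 measured genes, of which 52.9% were above 0. None of the 10 was past 25% on its brightest probe set, whereas 3.45% of all measured genes were on the higher side and 5.55% on the lower. The highest was Nr4a2 at 0.25 and the lowest Syt6 at -0.30.

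The promoters of both are shown, as the genes at the ends of that range, together with that of Tbr1, whose window holds a match to a SOX motif. They are the 250 bases before and 50 bases after an annotated start site, from RefSeq on build GRCm38.p6, printed along the gene's strand with motif matches in capitals. These are Nr4a2 at chr2:57123954-57124253 on the minus strand, Tbr1 at chr2:61804203-61804502 on the plus strand and Syt6 at chr3:103574995-103575294 on the plus strand.
Nr4a2: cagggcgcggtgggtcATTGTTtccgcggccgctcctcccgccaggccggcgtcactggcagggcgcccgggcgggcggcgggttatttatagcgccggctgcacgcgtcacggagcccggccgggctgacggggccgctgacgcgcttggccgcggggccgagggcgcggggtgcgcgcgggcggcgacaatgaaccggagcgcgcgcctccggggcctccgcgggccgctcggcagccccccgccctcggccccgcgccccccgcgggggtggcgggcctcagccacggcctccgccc
Tbr1: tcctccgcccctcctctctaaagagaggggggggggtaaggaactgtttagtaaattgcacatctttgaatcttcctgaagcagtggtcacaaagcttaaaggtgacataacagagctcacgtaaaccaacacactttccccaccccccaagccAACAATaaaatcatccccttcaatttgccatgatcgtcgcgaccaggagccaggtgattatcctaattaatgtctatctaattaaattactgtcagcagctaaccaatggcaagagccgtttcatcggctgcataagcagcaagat
Syt6: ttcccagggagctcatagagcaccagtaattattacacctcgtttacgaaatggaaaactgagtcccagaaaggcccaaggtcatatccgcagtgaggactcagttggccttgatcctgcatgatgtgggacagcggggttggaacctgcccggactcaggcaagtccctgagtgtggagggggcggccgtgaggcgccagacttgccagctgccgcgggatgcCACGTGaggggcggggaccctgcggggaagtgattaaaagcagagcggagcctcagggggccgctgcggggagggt
The table of promoters held 10 windows for 7 of the 10 genes (Bcl11b, Fezf2, Nr4a2, Sox5, Syt6, Tbr1 and Tle4). Both strands were searched for 5 motifs, and no match overlapped a match to another motif. The CArG box, the site that SRF binds, was found in 0 of the 10 windows and in 1.63% of all 32851 windows. The cyclic AMP element TGACGTCA was found in 0 of the 10 and in 1.79% of all windows, and the T-box half-site GGTGTGA in 0 of the 10 and in 3.98% of all windows. The SOX motif AACAAT was in 3 windows, of Nr4a2, Tbr1 and Tle4, and in 10.7% of all windows, and begins 96 bases before the start site in Tbr1 and 234 bases before it in Nr4a2, where it lies on the other strand. The E-box CACGTG was in 3 windows, 2 overlapping ones of Syt6 and 1 of Tle4, and in 7.15% of all windows. These shares are not matched for base composition. The 10 windows had a median of 62.8% G and C and 19 occurrences of CG, against 52.7% and 7 over all windows, and the E-box itself holds a CG. The Syt6 match begins 26 bases before the start site of the printed window. A match is a run of letters and not a measured binding site.

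Among the factors that set the layer 5 output fate, Fezf2 hardly differed and the probe sets of Bcl11b went both ways. Fezf2, a zinc finger factor required for corticospinal neurons, read 524.5 in the double knockout pool and 538.9 in the control pool on its only probe set, a difference of -0.043. Bcl11b, also called Ctip2, acts downstream of Fezf2 in the growth of corticospinal axons and has 4 probe sets, all measured. The brightest, 1435227_at, read 2773.9 in the double knockout pool and 2441.1 in the control pool, a difference of 0.18. The next 2 hardly differed. Probe set 1452966_at read 2039.8 in the double knockout pool and 1983.2 in the control pool, a difference of 0.037. Probe set 1450339_a_at read 1547.7 in the double knockout pool and 1589.6 in the control pool, a difference of -0.042. The dimmest, 1438784_at, read 662.2 in the double knockout pool and 886.4 in the control pool, 1.34-fold lower at -0.42. These 4 probe sets average -0.06 ± 0.26 (SD over probe sets), so the spread within Bcl11b exceeds the difference of its brightest probe set, and its direction depends on the probe set read.

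Crym, mu-crystallin, binds thyroid hormone and marks output neurons of layer 5. Its only probe set read 4448.1 in the double knockout pool and 4896.9 in the control pool, 1.10-fold lower at -0.14. Pooled over the 4858 genes with 2 or more bright probe sets, the SD between probe sets of the same gene was 0.18. The Crym difference is smaller than that spread. Such an SD describes disagreement between probe sets on the same 2 pools and does not measure variation between animals or arrays. On their brightest probe sets Foxp2 (-0.20), Syt6 (-0.30) and Nr4a2 (0.25) exceeded it.

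Of the genes of layer 6 and its thalamic projection, Tbr1 and Zfpm2 differed little. Tbr1, a T-box factor of early-born neurons, read 1720.3 in the double knockout pool and 1553.3 in the control pool on its only probe set, 1.10-fold higher at 0.14. The Tbr1 difference is smaller than the spread of 0.18 between probe sets of a gene. Zfpm2, also called Fog2, is a partner of GATA factors and a marker of corticothalamic neurons. Its brighter probe set read 1264.3 in the double knockout pool and 1204.9 in the control pool, a difference of 0.066. The dimmer one read 314.7 in the double knockout pool and 319.7 in the control pool, a difference of -0.026, which turned positive after quantile normalization (0.024) and after loess centring (0.023). Both Zfpm2 probe sets were designed on 1 sequence record, and neither moved by as much as the spread between probe sets.

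Tle4, a Groucho corepressor of corticothalamic neurons, gave opposite directions. Its brightest probe set, 1450853_at, read 1926.1 in the double knockout pool and 1751.2 in the control pool, 1.10-fold higher at 0.13. The other measured one, 1425650_at, read 553.6 in the double knockout pool and 674.7 in the control pool, 1.22-fold lower at -0.29. The mean over both is -0.08 ± 0.30 (SD, 2 probe sets), so no direction can be given for the gene. A probe set under the floor read 91.4 in the double knockout pool and 52.7 in the control pool.

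Syt6, a synaptotagmin found in layer 6 neurons, had the lowest difference of the brightest probe sets. Its only measured probe set read 253.9 in the double knockout pool and 312.0 in the control pool, 1.23-fold lower at -0.30, or -0.24 after loess centring. Its mean over the arrays lies in the dimmest tertile of measured probe sets, of which 12.3% were lower past 25% and 61.3% were below 0. The other 3 probe sets of Syt6 share 1 sequence record and read between 2.7 and 15.2 on the 2 arrays, far under the floor, so the gene rests on a single reading.

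Foxp2, a forkhead factor of layer 6 neurons that is also made by striatal projection neurons, was the only gene with more than 1 measured probe set whose measured probe sets all went one way. All 4 were lower in the double knockout pool. The brightest, 1438232_at, read 1010.9 in the double knockout pool and 1157.8 in the control pool, a difference of -0.20. Probe set 1438231_at, designed on the same sequence record, read 658.2 in the double knockout pool and 810.5 in the control pool, 1.23-fold lower at -0.30. Probe set 1440108_at read 741.8 in the double knockout pool and 753.1 in the control pool, a difference of -0.026 and the smallest of the 4. The dimmest, 1422014_at, read 194.7 in the double knockout pool and 297.9 in the control pool, 1.53-fold lower at -0.62 and at -0.55 after loess centring. The double knockout reading lies just above the floor. In the dimmest tertile of measured probe sets, to which it belongs, 1.85% were lower past 1.5-fold.

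The 4 probe sets of Foxp2 average -0.29 ± 0.25 (SD over probe sets). Of the 455 genes with exactly 4 bright probe sets, 8.35% had all 4 lower and 11% all 4 higher. Of the other 2 Foxp2 probe sets, under the floor on both arrays, 1458191_at read 145.1 in the double knockout pool and 128.6 in the control pool, and 1441365_at read 9.0 in the double knockout pool and 30.8 in the control pool. These low readings go in opposite directions and entered no count.

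Sox5 did not differ in a common direction. It has 7 probe sets, the most of the 10 genes, of which 4 were measured. The brightest, 1455535_at, read 554.2 in the double knockout pool and 530.5 in the control pool, a difference of 0.059. The next, 1432189_a_at, read 362.5 in the double knockout pool and 397.9 in the control pool, a difference of -0.14. The dimmer 2 were slightly higher, with 263.0 in the double knockout pool and 260.0 in the control pool for 1423500_a_at, a difference of 0.013. Probe set 1440827_x_at read 200.7 in the double knockout pool and 183.2 in the control pool, a difference of 0.13. All 4 measured probe sets average 0.02 ± 0.11 (SD, 4 probe sets). The 3 probe sets under the floor read between 33.9 and 126.7.

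Nr4a2, also called Nurr1, is a nuclear receptor of the subplate and lower layer 6 that also belongs to a family of immediate early genes. It gave the highest difference of the 10 genes. Its brightest probe set, 1455034_at, read 1767.3 in the double knockout pool and 1482.0 in the control pool, 1.19-fold higher at 0.25, and at 0.22 after loess or quantile scaling. Of a pair designed on 1 record, 1450750_a_at read 1041.8 in the double knockout pool and 1014.8 in the control pool, a difference of 0.034, and 1450749_a_at read 711.4 in the double knockout pool and 650.1 in the control pool, a difference of 0.13. The remaining measured one, 1447863_s_at, read 876.5 in the double knockout pool and 880.9 in the control pool, a difference of -0.011. The mean is 0.10 ± 0.12 (SD, 4 probe sets), so 3 of 4 were higher and the mean is smaller than the spread. The 2 probe sets under the floor read between 11.3 and 54.6.

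**Figure D2:**
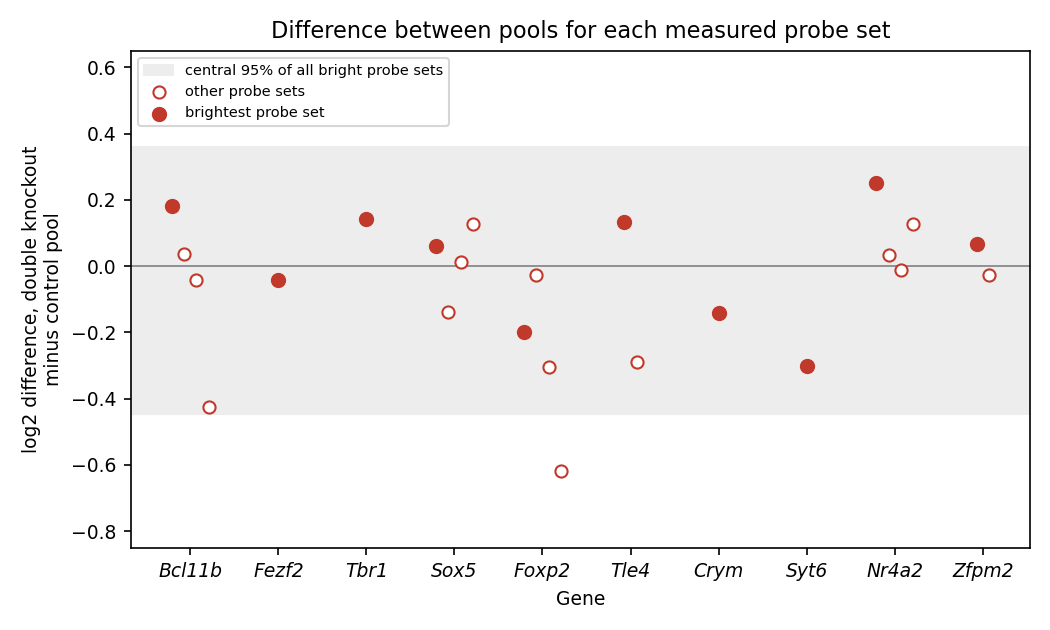
Log2 difference, double knockout minus control pool, for each of the 24 measured probe sets by gene, with filled points for the brightest probe set of a gene, open points for its others and a band from -0.45 to 0.36 that holds the central 95% of all bright probe sets. Among these 24 only the dimmest Foxp2 probe set, at -0.62, lies outside the band, and 5 genes have points on both sides of 0.

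The spread between probe sets of a gene was about as large as elsewhere on the arrays. For the 6 deep-layer genes with at least 2 measured probe sets the pooled SD was 0.20 log2. Over the 4858 genes with such probe sets it was 0.18. Of the 6 genes, 5 (Bcl11b, Sox5, Tle4, Nr4a2 and Zfpm2) had probe sets in both directions, as did 56.9% of the 4858. These shares are not matched for the number of probe sets, as Bcl11b, Sox5, Foxp2 and Nr4a2 have 4 bright ones each. Of the 455 genes with exactly 4, 8.35% had all lower and 11% all higher. Of the 24 measured probe sets, 23 kept their sign in deposited signals without centring, after quantile normalization and after loess centring. The exception was the dimmer one of Zfpm2.

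Direction also went with brightness across the arrays. In the brightest tertile of measured probe sets, above a mean signal of 977, 61.8% were above 0, and 7 of the 10 deep-layer probe sets there were higher. In the middle tertile 47.8% were above 0, and 2 of 8 deep-layer probe sets were. One of these 8, of Bcl11b, was lower past 25%, as were 5.78% of that tertile. In the dimmest tertile, under a mean signal of 387, 38.7% were above 0, and 2 of 6 deep-layer probe sets were. After loess centring, which removes such a trend, 12 of the 24 deep-layer probe sets were higher and 12 lower, and 6 of 10 genes were higher on their brightest probe set, with a median of 0.057. Under the same centring 49.4% of all measured probe sets and 51.5% of all measured genes were above 0.

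**Figure D3:**
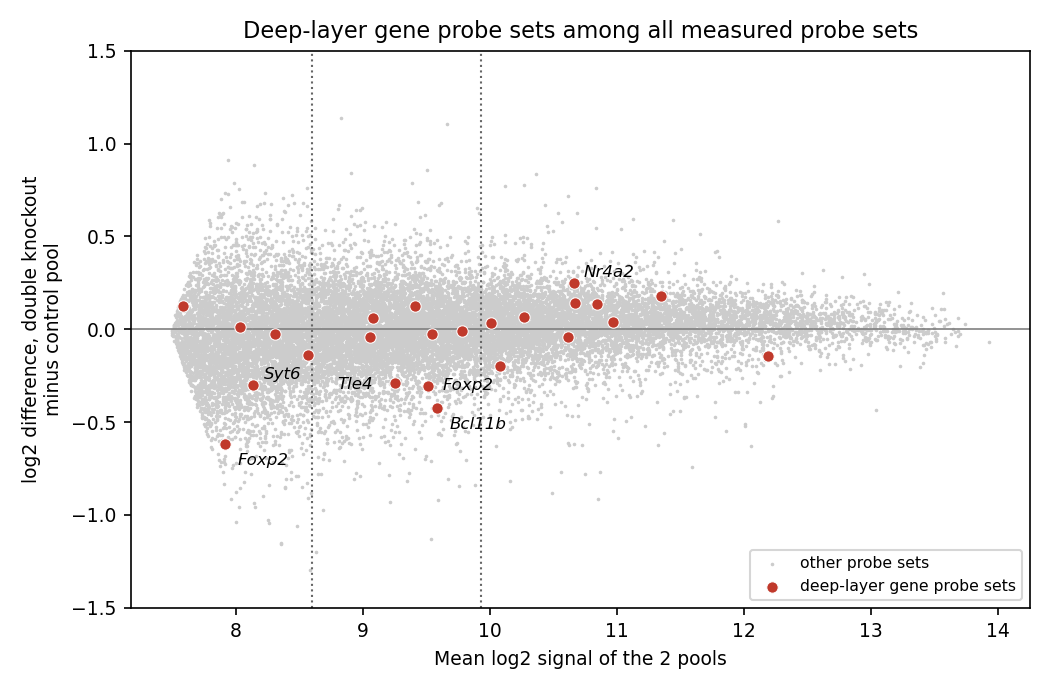
Log2 difference, double knockout minus control pool, against the mean log2 signal of both pools for all bright probe sets naming 1 gene, with the 24 deep-layer probe sets in red, those past 0.24 in either direction named, and dotted lines between the tertiles by signal. The spread of all probe sets widens toward low signals, where the lowest Foxp2 and Syt6 points lie, and 3 probe sets fall outside the plotted range of -1.5 to 1.5.

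Other genes of the same neurons also differed little. The lists of these genes were drawn up for this comparison with earlier results of these data known, and medians are over the brightest probe sets. Counts in every list, here and below, stand beside 52.9% of all measured genes above 0. Past 25% were 3.45% of all measured genes on the higher side and 5.55% on the lower. Of 13 measured layer 5 output genes 7 were higher and 6 lower. Their median was 0.021, and none was past 25%. Npr3, a natriuretic peptide receptor, differed by 0.25 and Crim1, a membrane protein of corticospinal neurons, by 0.14, while Pcp4, a calmodulin-binding protein, differed by -0.13 and Igfbp4 by -0.12. Of 10 layer 6 corticothalamic genes 9 were higher, with a median of 0.13, again with none past 25%, against 52.9% of all measured genes above 0. That share is not matched for brightness. Most of these genes lie in the brightest tertile, where 61.8% of probe sets were above 0. After loess centring the median of this list was 0.10. Sulf1, a heparan sulfate endosulfatase, differed by 0.30, Lmo3 by 0.22 and Grik3, a kainate receptor subunit, by 0.15, and Wnt7b, a secreted signal of deep-layer neurons, was the 1 lower gene at -0.14. For Nfia, named after its values were seen, the brightest probe set was higher by 0.14, but 3 of its 4 bright probe sets were lower, with a mean of -0.08 ± 0.14 (SD).

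Subplate and layer 6b genes, which share their place with Nr4a2, were higher in 5 of 8 cases with a median of 0.056. Moxd1 read 481.7 in the double knockout pool and 367.7 in the control pool, 1.31-fold higher at 0.39 on 1 probe set, the only one of these layer 5, layer 6 and subplate genes past 25%. Ccn2, a secreted matrix protein that marks layer 6b, differed by 0.087, Lpar1 by 0.084 and Tmem163 by -0.13.

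Regulators of projection neuron fate and relatives of the 10 genes gave a median of 0.050 over 26 measured genes, 17 higher and 9 lower. Emx2, a patterning factor of the cortical progenitors, read 310.8 in the double knockout pool and 424.7 in the control pool, 1.37-fold lower at -0.45 on 1 probe set. Its relative Emx1 differed by 0.17. Foxp1, a relative of Foxp2, differed by 0.17 on its brightest probe set, but its 8 measured probe sets average 0.02 ± 0.16 (SD), 4 higher and 4 lower. Of the relatives of Nr4a2, Nr4a3 differed by 0.16 and Nr4a1, named after its values were seen, by -0.099.

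Upper-layer genes, the counterpart of the deep-layer genes, were higher in 8 of 12 cases (median 0.039), and genes of neurons in general in 9 of 12 (median 0.073). The deep-layer median of 0.063 lies between these list medians, but the order depended on the processing. After loess centring the deep-layer median was 0.057, above 0.011 for upper-layer and 0.046 for general neuronal genes. With the mean over probe sets it was -0.053, below 0.0031 and 0.034. Over all measured genes 52.9% were above 0. Of the upper-layer genes, Rorb, a layer 4 factor, differed by 0.34, Inhba, an activin subunit, by -0.32, and both Pou3f2 and Cux1 by 0.17, although 6 of the 8 bright probe sets of Cux1 were lower. Of the general neuronal genes, Dcx, of migrating neurons, differed by 0.43 and Nefm, a neurofilament subunit, by -0.36.

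The labelled tissue was checked against its markers, and tissue and cell markers differed between the pools alongside the deep-layer genes. The lists here and in the next paragraph were also chosen with earlier results of these data known. Their counts describe the 2 pools and are not independent findings. All 5 cortical identity genes analysed were bright, with a median of 0.059 and Slc17a7, the vesicular glutamate transporter, lowest at -0.55. Striatal genes, of interest because striatal neurons also make Foxp2 and Bcl11b, were lower in 11 of 11 cases with a median of -0.31 and a range of -0.42 to -0.074. Their summed signal was 11510.1 in the double knockout pool and 13599.8 in the control pool, and 4 of the 11 were lower past 25%, Drd2, Six3, Penk and Gpr6. Over all measured genes 52.9% were above 0 and 5.55% were lower past 25%. Drd2 and Six3 lie in the dimmest tertile, where 61.3% of probe sets were below 0 and 12.3% were lower past 25%. The 4 bright Foxp2 probe sets were lower in the same pool. Of the 4 of Bcl11b, 2 were lower (-0.042 and -0.42) and the 2 brightest were higher (0.18 and 0.037). The part of striatal tissue in these values was not tested. The median of 6 thalamic genes was 0.0073, and Gbx2 and Lhx9 were under the floor on both arrays. Tcf7l2 was lowest at -0.60, with 222.1 in the double knockout pool and 336.2 in the control pool. It lies in the dimmest tertile, where 1.85% of probe sets were lower past 1.5-fold.

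Of the other cell types, meningeal genes were higher in 8 of 8 cases (median 0.37, summed signal 8350 in the double knockout pool and 6349.9 in the control pool) and microglia and macrophage genes in 7 of 9 (median 0.33, summed signal 7020.7 in the double knockout pool and 5966 in the control pool), and their part in the deep-layer values was not tested. Over all measured genes 52.9% were above 0. Oligodendrocyte genes were lower in 6 of 8, with a median of -0.29. Medians were 0.094 for interneurons over 9 genes, 0.0096 for radial glia and intermediate progenitors over 11, 0.10 for astrocytes over 7 and -0.080 for endothelium over 7. Of the blood genes, Hba-a1 and Alas2 were under the floor on both arrays. Of the targeted genes, Mrtfb was 1.36-fold lower in the double knockout pool, and Mrtfa, labelled null in both, was 2.30-fold lower, at 262.4 in the double knockout pool and 601.6 in the control pool. Of all 11636 measured genes, 5 were lower past 2-fold. Both labels give Mrtfa as null, and why its signal differed between the pools was not tested. No source used here states whether the Mrtfb and Mrtfa probe sets lie in deleted parts.

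**Figure D4:**
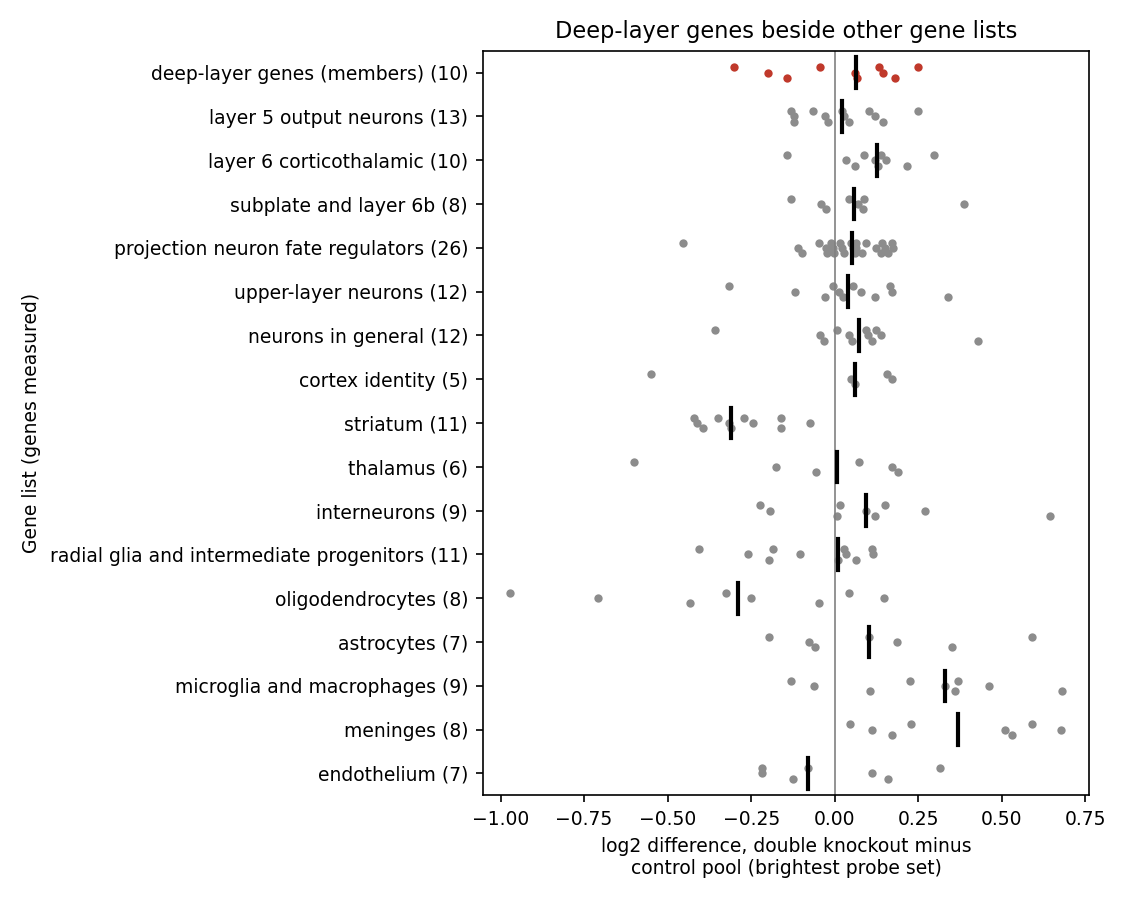
Log2 difference, double knockout minus control pool, of the brightest probe set of each measured gene, by list, with a black bar at the list's median and the number of genes in brackets. The deep-layer genes, in red at the top, spread from -0.30 to 0.25 on both sides of 0, while all striatal points lie below 0 and all meningeal points above it.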

How the data were processed

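Probe set intensity signals, linear and printed to 1 decimal, were deposited for 2 arrays. Per the submitters' processing notes the tool was MAS5. No source used here gives its version or scaling target, but the 2% trimmed mean was 500.002 on both arrays. Biotin-labelled cRNA came from 6 ug of pooled total RNA, per the labels' protocols. The number of columns of no listed sample was 0. Of 45037 non-control probe sets, 34945 named 1 gene in the platform annotation, 932 several and 9160 none. Values were computed in Python 3.11.15 (numpy 2.4.6, pandas 2.3.3, scipy 1.17.1, statsmodels 0.14.6, matplotlib 3.10.9). The double knockout signals were shifted by 0.0037 log2 so that the median difference of probe sets bright on both arrays was 0. Signals under the floor of 178.6 (50th percentile) were set to it. Signals printed are as deposited. Calls count differences past 25% or 1.5-fold, and scripts were tested on simulated data. Depth does not apply to arrays, whose number limits the precision.

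The genes named are the 10 deep-layer genes, Mrtfb, Mrtfa and Srf, and of each other list up to 4 of the largest size of difference among bright genes. Genes under the floor on both arrays (Gbx2, Lhx9, Hba-a1, Alas2) are named outside this rule, as are those said to be named after their values were seen. Members and lists were chosen with earlier results of these data known. Srf was 1.24-fold lower. Alternatives were signals without centring, quantile normalization, loess centring (span 0.3), floors at the 25th and 75th percentiles, no floor, a pseudocount equal to the floor, the mean over probe sets and, by suffix, fewer probe sets.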

Additional observations from a re-analysis of the deposited data

How the results depend on the processing

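The median of the deep-layer genes, 0.063, ranged from -0.053 to 0.13 over the 10 alternatives and was negative only with the mean over probe sets. In all 10 it stayed within 0.18 log2 of its main value, the SD between probe sets of a gene. That margin is wider than the median itself, so a change of sign also falls within it. The count of deep-layer probe sets past 25% was 0 higher and 2 lower, and 13 of 18 recounts gave the same number. With the floor at the 25th percentile 1 of 28 was higher and 3 lower, where 5.93% and 14.4% of all measured probe sets were. With the floor at the 75th percentile 1 of 16 was lower, where 2.27% of all were. With no floor and no filter, when the 11 dim probe sets enter, 3 of 35 were higher and 6 lower, where 9.99% and 21.1% of all were. Bcl11b and Tle4 changed sign with the mean over probe sets (-0.062 and -0.078), and the other 8 genes kept their sign wherever they had a value. Syt6 has no value without probe sets marked _s, _x or _a, nor with the floor at the 75th percentile, which also removed Fezf2 and Sox5. Leaving out only _s and _x was added after seeing the data. The oligodendrocyte median was -0.047 without probe sets marked _s, _x or _a. No paired analysis was possible because each group has 1 sample. Low signals limit Syt6, the dimmest Foxp2 probe set and the dimmer ones of Sox5.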
